A study of Mus musculus with 7 samples.

Results

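The aquaporins and glycerol channels of gonadal fat are described here from 8 genes, Aqp1, Aqp3, Aqp4, Aqp5, Aqp7, Aqp8, Aqp9 and Aqp11, chosen as a gene family by name and matched to the gene names of each transcribed locus. They take up 9 of the 35534 loci in the table, since Aqp11 is named at 2 loci. RNA was sequenced from the right gonadal fat pad of male CD-1 mice aged 21 days. The dams of 4 of them had been given BDE-47, a brominated diphenyl ether flame retardant, and the dams of the 3 controls only its vehicle, tocopherol-stripped corn oil. The daily oral dose was 0.2 mg per kg of the dam's weight from day 8 of pregnancy to day 21 after birth, so the pups were reached only through the mother. Each pup came from another litter, and all were fasted before collection. The sources name no genetic modification of the mice in either group.

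Aquaporins are channels that let water cross cell membranes along its gradient. Some members, the aquaglyceroporins, also pass glycerol. In fat, glycerol is left when stored triglyceride is broken down, and AQP7 is the main known route by which it leaves the fat cell, while AQP9 is known for taking glycerol into hepatocytes, where it can be made into glucose. AQP1 is the water channel of capillary endothelium and red blood cells.

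The values are FPKM, fragments scaled for transcript length and library size, so levels can be set beside each other between genes. The authors' table gives 1 FPKM value per group and locus, a pooled value on a log2 scale, and no value per mouse. The spread between mice is therefore unknown, no test across mice can be made, and each difference below is a description of 2 pooled values. The table does not state library depth. Adipocyte markers were high in both groups, with Fabp4, the fatty acid-binding protein gene of fat cells, at 32996 FPKM in controls against 31652 FPKM after exposure, and Adipoq, the adiponectin gene, at 3692 and 3666 FPKM. Cfd, another adipocyte marker, was at 4182 and 6252 FPKM, a log2 difference of 0.58. A locus counts as expressed when it carries a gene name and lies above 1 FPKM in at least 1 group, which 14262 loci did. It counts as changed when the group values differ at least 2-fold. Of the expressed loci, 4.24% were at least 2-fold lower and 1.04% at least 2-fold higher in exposed fat, and 8.00% and 2.73% passed 1.5-fold. Without the limit on FPKM, 8.81% of the 25791 named loci passed 2-fold downward and 9.63% upward.

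Of the 8 genes, 5 were expressed by this measure. Of these, 1 (Aqp9) was at least 2-fold lower in exposed fat, against the 4.24% of all expressed loci, and 0 were at least 2-fold higher. Aqp9 and Aqp5 passed the limit on FPKM only through their control values, which favours a lower exposed value. The 3 most abundant, Aqp1, Aqp7 and Aqp11, had group values within 0.1 log2 of each other. The median log2 difference, BDE-47 minus control, was −0.07 over the 5 expressed genes and 0.01 over all expressed loci. Aqp3, Aqp4 and Aqp8 stayed below 1 FPKM in both groups, and the authors' software marked the same 3 genes as having too few reads to test. All 8 had a value above 0 in both groups.

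The sequences before the gene starts are shown for the pair of genes that hold most of the family's signal, Aqp7 and Aqp1, and for Aqp8, which had the largest difference. They are the 250 bases before the outermost RefSeq start on GRCm38.p6, the assembly of mm10, written 5′ to 3′ on the strand of the gene, and capitals mark AGGTCA, the core bound by many nuclear receptors including PPARs, or CACGTG, the E-box, on either strand. Aqp7 lies on the minus strand (chr4:41048137-41048386), Aqp1 on the plus strand (chr6:55336049-55336298) and Aqp8 on the plus strand (chr7:123462044-123462293).
Aqp7: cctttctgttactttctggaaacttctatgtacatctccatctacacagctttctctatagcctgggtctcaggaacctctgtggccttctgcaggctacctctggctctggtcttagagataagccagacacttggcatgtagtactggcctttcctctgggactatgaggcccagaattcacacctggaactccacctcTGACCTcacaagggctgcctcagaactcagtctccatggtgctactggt
Aqp1: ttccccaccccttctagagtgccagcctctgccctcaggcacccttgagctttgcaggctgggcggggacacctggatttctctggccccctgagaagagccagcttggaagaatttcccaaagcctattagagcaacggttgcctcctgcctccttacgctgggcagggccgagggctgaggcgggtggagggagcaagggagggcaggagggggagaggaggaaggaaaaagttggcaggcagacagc
Aqp8: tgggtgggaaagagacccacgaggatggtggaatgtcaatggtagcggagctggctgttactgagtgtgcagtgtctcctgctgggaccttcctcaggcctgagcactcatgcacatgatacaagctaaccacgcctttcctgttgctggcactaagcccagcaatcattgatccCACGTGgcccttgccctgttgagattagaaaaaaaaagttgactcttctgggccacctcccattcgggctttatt

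Promoter sequences were found for 7 of the 8 genes, all but Aqp4. AGGTCA was present in 2 of them, Aqp7 and Aqp11, and in 13.8% of the 27025 gene promoters of the same length. In Aqp7 it stands as its reverse complement, TGACCT, 49 bases before the start. The direct repeat of this core with 1 base between its copies is the full form bound by PPAR with its partner RXR. It contains AGGTCA and was searched on either strand as an exact match only. It was in 0 of the 7 and in 0.037% of all promoters. Imperfect copies of the repeat were not searched, so this count cannot show whether any of the 7 windows holds one. CACGTG was in Aqp5 and Aqp8 and in 6.04% of all promoters, and TGTTTT, a core of forkhead and insulin response elements, was in 0 of the 7 and in 20.1% of all. The promoters also differed in CpG dinucleotides. Aqp7 had 0 and Aqp9 had 1 in 250 bases, whereas Aqp5 had 38, more than 98.2% of all promoters, and Aqp11 had 23. Part of these windows is transcribed in the GENCODE annotation, whose starts can lie outside those of RefSeq. Annotated exons of the gene cover 246 of the 250 bases for Aqp5, which include its CACGTG, 128 for Aqp9, 42 for Aqp11, 3 each for Aqp7 and Aqp8, and 0 for Aqp1 and Aqp3. These matches describe the letters of each window and were not related to the expression values by any test.

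Among the aquaglyceroporins, Aqp7 was the abundant member and its group values were nearly the same. Aqp7 (chromosome 4 of GRCm38, 41033074 to 41048139, minus strand) was at 86.8 FPKM in controls against 85.0 FPKM after exposure, a log2 difference of −0.03. Its level was above those of 93.2% of expressed loci in either group. Among loci above 50 FPKM, 87.5% had a difference at least as far from 0 as that of Aqp7, and 1.62% were at least 2-fold lower.

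Aqp9 (chromosome 9, 71110659 to 71168682, minus strand) was at 2.19 FPKM in controls against 0.747 FPKM after exposure, a 2.93-fold lower group value and a log2 difference of −1.55. It was the only expressed member of the family past 2-fold, and it passed the limit on FPKM only through its control value. In bulk tissue such as this, fewer cells of a type and less RNA per cell cannot be told apart. Of the 4592 named loci with a higher group value between 1 and 5 FPKM, 8.49% were at least 2-fold lower, and 6.14% had a difference at least as far from 0 as that of Aqp9. With 1 FPKM added to both groups its log2 difference was −0.87, which no longer passes 2-fold. Aqp9 was below Aqp7 by 39.7-fold in control and by 114-fold in exposed fat.

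Aqp3, the glycerol and water channel of the basal cells of skin and other epithelia, was at 0.102 FPKM in controls against 0.179 FPKM after exposure, a log2 difference of 0.81. It was the only member with a higher value in exposed fat, and at this level 40.7% of the 4007 named loci between 0.1 and 1 FPKM differed at least as far. Aqp3 (chromosome 4, 41092722 to 41098183, minus strand) is the next annotated gene in the table beyond Aqp7, 44583 bases away. The neighbours differed in level by 849-fold in control and by 474-fold in exposed fat. Added together, Aqp3, Aqp7 and Aqp9 came to 89.1 FPKM in controls against 86.0 FPKM after exposure.

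**Figure D1:**
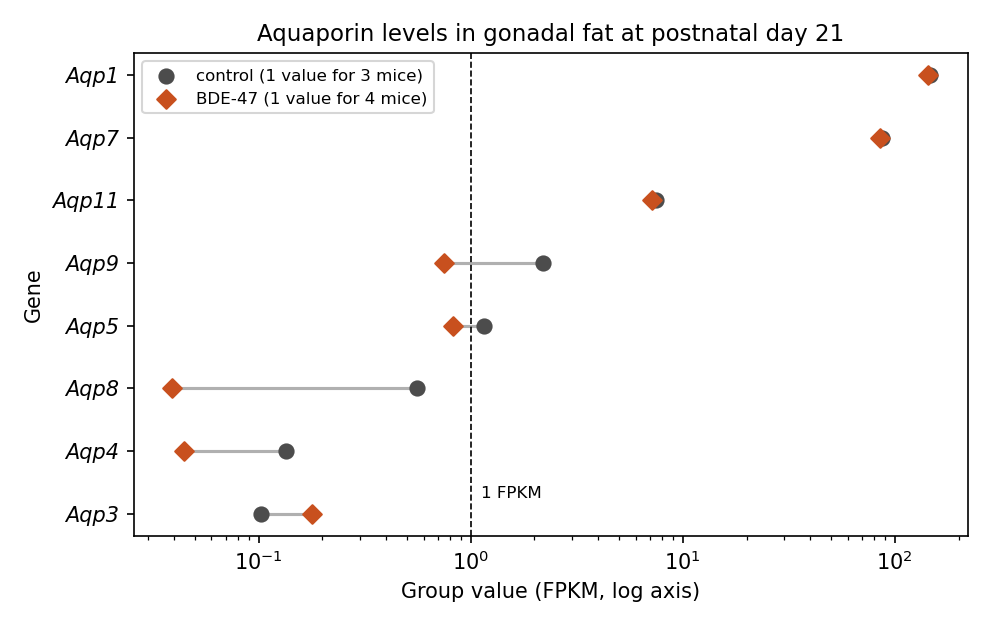
Group values of the 8 genes in FPKM on a log axis, with 1 pooled value per group (circle, control, 3 mice; diamond, BDE-47, 4 mice), and the dashed line at 1 FPKM. Aqp1, Aqp7 and Aqp11 overlap between groups, Aqp9 moves from 2.19 to 0.747 FPKM across the line, and Aqp8, Aqp4 and Aqp3 stay below it.

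Aqp1 was the most abundant of the water channels and of the family. Aqp1 (chromosome 6, 55336432 to 55348555, plus strand) was at 146 FPKM in controls against 144 FPKM after exposure, a log2 difference of −0.02, above 96.0% of expressed loci in control. Aqp1 and Aqp7 together made up 95.2% of the summed FPKM of the 8 genes in control and 96.2% in exposed fat. The ratio of Aqp1 to Aqp7 was 1.68 in control and 1.69 in exposed fat.

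The other water channels were low. Aqp5, the channel of salivary, lacrimal and airway glands (chromosome 15, 99590782 to 99594829, plus strand), was at 1.16 FPKM in controls against 0.824 FPKM after exposure, 1.40-fold lower. Among loci between 1 and 5 FPKM, 24.7% differed at least as far from 0. Aqp4, the channel of astrocytes and skeletal muscle (chromosome 18, 15389496 to 15410982, minus strand), was at 0.135 FPKM in controls against 0.0445 FPKM after exposure, a log2 difference of −1.60. Among loci between 0.1 and 1 FPKM, 19.8% differed at least as far, so a difference of this size was common at that level.

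Aqp8, a water and ammonia channel of hepatocytes, pancreas, colon and testis (chromosome 7, 123462291 to 123468004, plus strand), was at 0.559 FPKM in controls against 0.0390 FPKM after exposure. The log2 difference of −3.84, a 14.3-fold lower value, was the largest of the family. Of the 4007 named loci between 0.1 and 1 FPKM, 20.0% were at least 2-fold lower and 5.99% had a difference at least as far from 0 as that of Aqp8. The gene lay below 1 FPKM in both groups, and its log2 difference shrank to −2.24 with 0.1 FPKM and to −0.59 with 1 FPKM added to both groups.

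Aqp11, an aquaporin of the endoplasmic reticulum with an altered pore motif (chromosome 7, 97724006 to 97738289, minus strand), was at 7.52 FPKM in controls against 7.16 FPKM after exposure, a log2 difference of −0.07. A further locus of the same name and the same span was at 0.697 and 0.742 FPKM, a log2 difference of 0.09. Another locus of that span carried no name and was at 1.47 and 0.555 FPKM. As the sources do not give a strand for the counting, reads of these 3 loci may not be told apart. Adding the named loci together gave a log2 difference of −0.06.

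In control fat the order of levels was Aqp1, Aqp7, Aqp11, Aqp9, Aqp5, Aqp8, Aqp4 and Aqp3. In exposed fat Aqp1, Aqp7 and Aqp11 kept their places, followed by Aqp5, Aqp9, Aqp3, Aqp4 and Aqp8. Aqp9 was 1.89 times Aqp5 in control and 0.908 times Aqp5 in exposed fat. Whether neighbours in either order differ beyond the spread between mice cannot be said from pooled values. The 6 genes other than Aqp1 and Aqp7 summed to 11.7 FPKM in controls against 8.99 FPKM after exposure.

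**Figure D2:**
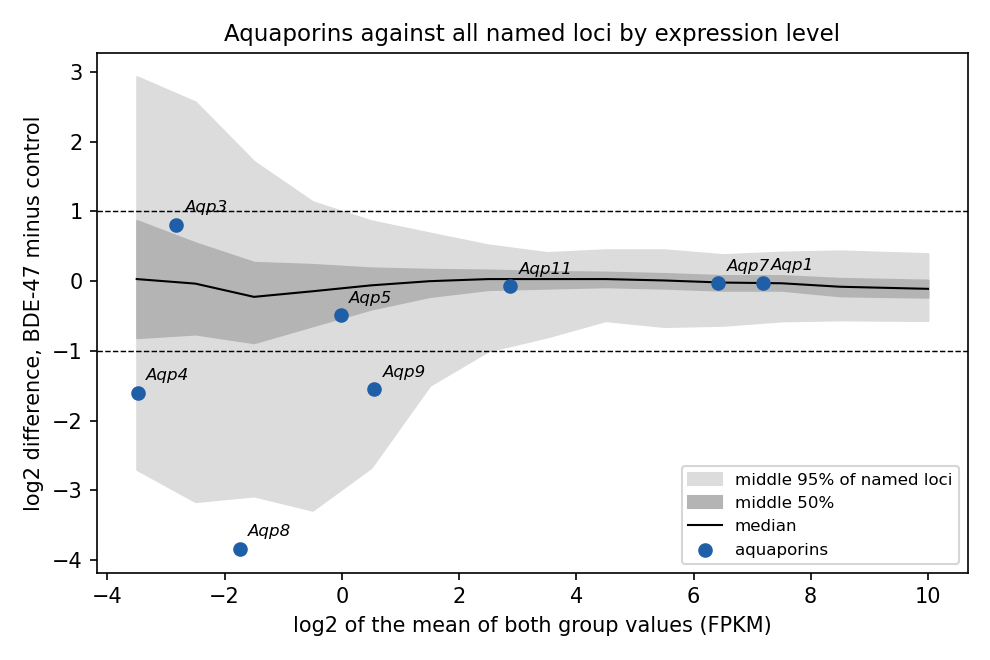
Log2 difference (BDE-47 minus control) of each gene against the log2 of the mean of both group values, over bands that hold the middle 50% and 95% of named loci above 0 in both groups at each level; dashed lines mark 2-fold. Aqp8 at −3.84 lies below the 95% band, Aqp9 at −1.55 and Aqp4 at −1.60 lie inside it, and Aqp1, Aqp7 and Aqp11 lie near 0.

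The nearest named locus on each side of the genes was read from its position. Around Aqp7 and Aqp3, Mir3094 was listed at 0 in both groups, and Nol6, which takes part in ribosome assembly, was at 18.9 FPKM in controls against 19.3 FPKM after exposure. Next to Aqp11, Clns1a, the gene of a chloride channel regulator and methylosome subunit, was at 9.85 and 9.99 FPKM, and Pak1, a kinase gene, at 3.34 and 2.30 FPKM. Next to Aqp8, Lcmt1, a leucine carboxyl methyltransferase gene, was at 22.9 and 20.5 FPKM, and Zkscan2 at 0.127 and 0.138 FPKM.

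Beside Aqp1, Fam188b was at 1.75 FPKM in controls against 2.17 FPKM after exposure, and Ghrhr, the receptor gene of growth hormone-releasing hormone, at 0.310 and 0.107 FPKM. Beside Aqp4, Kctd1 was at 0.901 and 0.979 FPKM, and Chst9 was listed at 0 in both groups. On one side of Aqp9, 5486 bases away, Gm32511 was at 0.170 and 0.156 FPKM, a log2 difference of −0.12. On the other side, 175850 bases away, Lipc, the hepatic lipase gene, was at 0.959 and 0.0981 FPKM, a log2 difference of −3.29. Of the neighbours outside the family, Ghrhr and Lipc passed 2-fold, both downward and both below 1 FPKM in each group. Of the 4007 named loci between 0.1 and 1 FPKM, 20.0% were at least 2-fold lower.

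Some reads at these genes were assigned to loci without a name. Within the annotated span of Aqp9, 3 unnamed loci lay at higher coordinates than the named locus, which is upstream for this minus-strand gene. They were at 1.71, 1.62 and 0.768 FPKM in control and 1.31, 1.04 and 0.196 FPKM in exposed fat. The first 2 share 1 position (chr9:71166326-71166788) and overlap no annotated exon of Aqp9, whereas the last overlaps one. All 3 were lower in exposed fat, as was Aqp9, with log2 differences of −0.38, −0.64 and −1.97, and only the last passed 2-fold. At the first exon of Aqp5, an unnamed locus (chr15:99590683-99590956 in the authors' mm10 table) was at 2.03 FPKM in control and listed at 0 in exposed fat. An unnamed locus with the span of Aqp7 was at 1.44 and 1.39 FPKM, a log2 difference of −0.05 beside the −0.03 of Aqp7. Beyond the end of that span, 88 bases away, 2 unnamed loci of 1 position (chr4:41028437-41028818 in the same table) were at 2.11 and 1.88 FPKM in controls against 0.595 and 0.763 FPKM after exposure, log2 differences of −1.83 and −1.30. Both passed 2-fold downward, unlike Aqp7, but they share 1 position and were above 1 FPKM only in controls. The share of unnamed loci past 2-fold was not computed, so this contrast has no background beside it. Whether these loci belong to the neighbouring gene was not tested.

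The remaining aquaporins were near or at the bottom of the scale. Aqp2, the vasopressin-regulated channel of the kidney, was at 0.358 FPKM in controls against 0.555 FPKM after exposure. Mip, the lens aquaporin, was at 0.0123 and 0.0571 FPKM, Aqp6 at 0.00879 and 0.0151 FPKM, and Aqp12 was listed at 0 in both groups. None of these 4 genes was expressed by the measure above. Aqp2, Aqp5 and Aqp6 lie side by side on chromosome 15, 6235 and 6571 bases apart. Of this cluster only Aqp5 was above 1 FPKM, and only in controls (1.16 against 0.824 FPKM after exposure).

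Genes that make and use glycerol in fat cells did not pass 2-fold, and several differed more between groups than Aqp7 did. Among the 8 measured loci of glycerol and glycerol 3-phosphate metabolism, 0 passed 2-fold in either direction, with a median log2 difference of 0.03 and a range from −0.37 to 0.51. Gpd1, which makes glycerol 3-phosphate from a glycolytic intermediate, was at 541 FPKM in controls against 512 FPKM after exposure, Pck1, which feeds that route from pyruvate, at 488 and 564 FPKM, and Pgp, a glycerol 3-phosphate phosphatase, at 23.8 and 18.5 FPKM. Gyk, the glycerol kinase gene, was at 5.66 and 4.38 FPKM, and Aqp7 was above it by 15.3-fold in control and 19.4-fold in exposed fat. The largest difference of the list was that of Gpd2, the mitochondrial glycerol 3-phosphate dehydrogenase gene, at 7.06 and 10.1 FPKM. The names of Gyk and Gpd2 were added to those chosen by the rule after their values were seen.

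Of 10 genes of triglyceride lipolysis, the source of the glycerol, 0 passed 2-fold in either direction, with a median of 0.07. Cidec, which enlarges lipid droplets, was at 2856 FPKM in controls against 2487 FPKM after exposure, and Plin1, which coats them, at 792 and 826 FPKM. Aqp7 was 0.113 times the level of Pnpla2, the adipose triglyceride lipase gene, in control and 0.117 times in exposed fat.

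Of 10 expressed genes of PPAR and insulin signalling, which are known to control Aqp7 and Aqp9 in fat and liver, 0 passed 2-fold in either direction, and 8 had a higher value in exposed fat, with a median log2 difference of 0.22. Akt2, an insulin-signalling kinase gene, was at 120 FPKM in controls against 139 FPKM after exposure, Pparg, the adipogenic nuclear receptor gene, at 105 and 164 FPKM, and Pik3r1, the regulatory subunit of phosphoinositide 3-kinase, at 40.5 and 74.5 FPKM. Pik3r1 had the largest difference of the list, 0.88 on the log2 scale.

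Genes of cell volume and osmolyte balance are given by their values alone, with no count over the list, since the list is not reported in full. The most abundant was a locus that joins Slc5a3, the myo-inositol transporter gene, with Mrps6, at 169 FPKM in controls against 142 FPKM after exposure, followed by Akr1b3, the aldose reductase gene, at 91.1 and 86.8 FPKM, and Car4, a carbonic anhydrase gene, at 26.7 and 27.1 FPKM. The range of the reported expressed genes ran from −0.67 for Car2, another carbonic anhydrase gene (3.32 and 2.08 FPKM), to 0.57 for Slc12a2, a sodium-potassium-chloride cotransporter gene (13.0 and 19.3 FPKM).

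**Figure D3:**
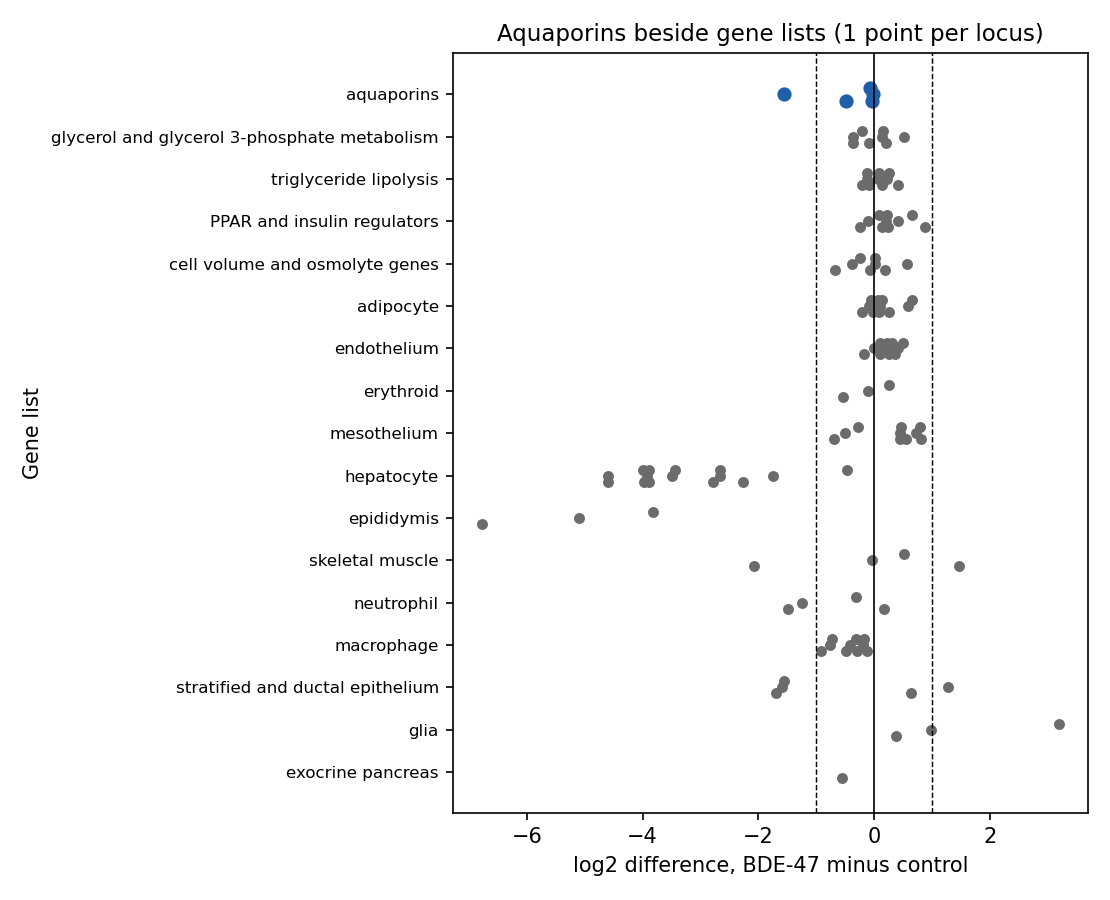
Log2 difference (BDE-47 minus control) of expressed loci, 1 point per locus, for the 5 expressed aquaporins (top) and each gene list; loci listed at 0 in a group are not drawn, and dashed lines mark 2-fold. The glycerol, lipolysis and adipocyte lists lie around 0, as do Aqp1, Aqp7 and Aqp11, while 14 of 15 hepatocyte loci lie left of −1. Of all expressed loci, 4.24% were at least 2-fold lower.

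Markers of other cell types that carry aquaporins differed in how they moved. Of 15 hepatocyte loci, a cell type in which Aqp8 and Aqp9 are known to be abundant, 14 had a value at least 2-fold lower and 0 higher, with a median log2 difference of −3.49. The shares of all expressed loci were 4.24% lower and 1.04% higher. The hepatocyte list summed to 925 FPKM in controls against 231 FPKM after exposure, and none of its loci was at 0 in both groups. Alb, the albumin gene, was at 362 and 24.6 FPKM, a log2 difference of −3.88. The locus shared by 4 alpha-1-antitrypsin genes including Serpina1a, at 247 and 179 FPKM, was the exception. The log2 difference of Aqp9, −1.55, was smaller in size than that of each of the 14 and that of Aqp8, −3.84, lay within their range. The part of hepatocyte RNA in the values of Aqp8 and Aqp9 was not tested.

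The epididymis, a duct that adjoins this fat pad, also expresses Aqp9. Of its 12 measured markers 6 were expressed, and all 6 were at least 2-fold lower, beside 4.24% of all expressed loci. Each of the 6 passed the limit on FPKM only through its control value, which favours a lower exposed value. Without that limit, 10 of the 12 were at least 2-fold lower and 1 higher, beside 8.81% and 9.63% of all named loci. The summed level was 44.1 FPKM in controls against 0.425 FPKM after exposure. Lcn9 was listed at 0 in both groups. The locus that joins Crisp1 and Crisp3, sperm-binding secretory proteins, was at 18.6 and 0.171 FPKM, and Defb38, a beta-defensin gene, was at 10.9 FPKM and listed at 0. Among neutrophil markers, another cell type with Aqp9, 2 of 4 expressed loci were at least 2-fold lower, beside 4.24% of all expressed loci. S100a8 was at 47.8 and 20.3 FPKM. The summed level of the neutrophil list was 788 FPKM in controls against 855 FPKM after exposure, most of it from a locus that joins Retnlg with the macrophage and fat gene Retnla (734 and 832 FPKM). Macrophage markers were 0 of 10 at least 2-fold lower and 10 of 10 below 0, with a sum of 1465 and 947 FPKM, led by the locus of Lyz1 and Lyz2 at 885 and 523 FPKM and by Cd68 at 132 and 70.0 FPKM. The part of any of these cells in the value of Aqp9 was not tested.

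Of the epithelial markers, which bear on Aqp3 and Aqp5, 3 of 5 expressed loci were at least 2-fold lower and 1 higher. The shares of all expressed loci were 4.24% and 1.04%. The list summed to 14.95 FPKM in controls against 11.9 FPKM after exposure. Of the lower loci, Elf3 (2.41 and 0.818 FPKM) and Ehf (1.24 and 0.412 FPKM) were above 1 FPKM only in controls. Passing the limit that way favours a lower exposed value. The higher locus was Trp63, at 0.500 and 1.21 FPKM, a log2 difference of 1.28, and it was above 1 FPKM only in exposed fat. Epcam, an adhesion gene of epithelia, was at 4.69 and 1.45 FPKM. Krt7, a keratin of ducts that mesothelium also makes, was at 4.66 and 7.26 FPKM and did not pass 2-fold. The exocrine pancreas, another site of Aqp8 and Aqp12, had 6 of 11 markers listed at 0 in both groups, Pnlip, Amy2a5, Prss1, Prss2, Try4 and Try5. Its sum of 43.5 and 30.1 FPKM came almost wholly from Cela1 (42.8 and 29.0 FPKM), with Cela2a at 0.423 and 0.376 FPKM. The part of epithelial cells in the values of Aqp3 and Aqp5 was not tested.

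Of the cell types known for Aqp1, endothelium and mesothelium had more loci above 0 than below, and red cells more below than above. Of 12 endothelial loci, 0 were at least 2-fold lower or higher and 10 were above 0, with a median of 0.24. Cdh5, the cadherin of vessel walls, was at 74.5 FPKM in controls against 80.4 FPKM after exposure, and Pecam1 at 67.6 and 73.0 FPKM. Mesothelial loci, which line the fat pad, had 0 of 10 past 2-fold and 7 above 0, with a median of 0.46, Upk3b at 28.4 and 49.5 FPKM and Krt19 at 19.8 and 26.9 FPKM. The 3 below 0 were Krt8, Krt18 and Wt1, with log2 differences of −0.70, −0.51 and −0.28. Among red cell markers, 2 of 3 expressed loci were below 0 and 0 passed 2-fold; the beta-globin locus of Hbb-b1 and Hbb-bs was at 180 and 168 FPKM, and the locus of Hba-a1 and Hba-a2 at 29.4 and 20.3 FPKM. The list sums were 442 and 486 FPKM for endothelium, 119 and 160 FPKM for mesothelium and 212 and 192 FPKM for red cells, beside 146 and 144 FPKM of Aqp1.

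Cell types known for Aqp4 were low or led by genes that other cells share. The skeletal muscle list summed to 125 FPKM in controls against 34.4 FPKM after exposure, of which Acta1, the skeletal muscle actin gene, made 120.3 and 28.6 FPKM. Of 4 expressed muscle loci, 1 (Acta1) was at least 2-fold lower and 1 higher, beside 4.24% and 1.04% of all expressed loci. The higher was Actn3, the actinin gene of fast fibres, at 0.590 and 1.62 FPKM, above 1 FPKM only in exposed fat. Tnnc2 was at 1.07 and 1.04 FPKM. The glia list summed to 18.1 and 74.8 FPKM, of which S100b, which fat cells also make, was 6.54 and 59.7 FPKM and Mbp 8.88 and 11.6 FPKM, while the astrocyte gene Gfap was at 0.0470 and 0.0808 FPKM. Of 3 expressed glia loci, 0 were at least 2-fold lower and 1 (S100b) higher. Without the limit on FPKM, 1 of 9 (Mag, 0.529 and 0.232 FPKM) was at least 2-fold lower and 3 higher. The shares of all named loci were 8.81% and 9.63%. The part of muscle or glia in the value of Aqp4 was not tested.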

How the data were processed

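Reads were sequenced as single ends from poly(A) RNA. Per the paper and the labels, the authors cleaned and demultiplexed them in BaseSpace, aligned them with TopHat2 (mm10), and used Cufflinks 2.1.1 for assembly and Cuffdiff 2.1.1 for the group values. They dropped 1 shallow control library. Not given in the sources used here are the annotation, the strand setting and how libraries were normalized. The authors deposited 1 table with the log2 FPKM of each group per locus, in which 0 FPKM is listed at −10. Its log2 ratio, q value and significance columns hold the authors' comparison and were not used. The flag for too few reads was used as a flag only. The table has 1 empty line.

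Differences were recomputed from the log2 group columns, and FPKM as powers of 2, with no pseudocount. Where a symbol had several loci, the most abundant was taken, and joined genes of 1 list were counted once. A locus listed at 0 in 1 group counted as past 2-fold. The counting was tested on simulated tables. Gene positions are from GENCODE vM21 (GRCm38) and promoters from RefSeq (GRCm38.p6); where a gene had several starts, the outermost was used. The Aqp9 promoter window is not printed because 128 of its bases lie in annotated exons, against at most 3 in the windows shown.

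The members and the 17 gene lists were chosen with earlier results of these data known. All 8 members are named. Of each pathway list, the 3 genes with the highest mean FPKM and those past 2-fold are named, and of each cell type list the 2 with the highest control FPKM; genes beyond that rule were named after their values were seen. Of the cell volume and osmolyte list, 1 gene is not reported here and was left out of the list and its plot after the values were seen. No gene was named for likeness of pattern, since 2 group values give no pattern. Alternatives changed the FPKM filter, the pseudocount, the scaling, the locus per symbol, joined loci and the fold. Python 3.11.15, pandas 2.3.3, numpy 2.4.6 and matplotlib 3.10.9 were used.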

Additional observations from a re-analysis of the deposited data

How the results depend on the processing

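With no filter on FPKM, 3 of 8 genes (Aqp4, Aqp8 and Aqp9) were at least 2-fold lower, where all named loci give 8.81%, and the median log2 difference was −0.28. With more than 5 FPKM required in at least 1 group, 0 of 3 genes were at least 2-fold lower. With log2(FPKM + 1), 0 of 5 were at least 2-fold lower, and the log2 differences were 0.10 for Aqp3, −0.12 for Aqp4, −0.24 for Aqp5, −0.59 for Aqp8 and −0.87 for Aqp9. With log2(FPKM + 0.1) they were 0.47 for Aqp3, −0.70 for Aqp4, −2.24 for Aqp8 and −1.43 for Aqp9. These shifts follow from the constants added to low values and from the number of genes kept. The other 61 values kept their direction and moved by at most 0.1 log2 or left the count as it was, under centring on the median, summing loci, loci of 1 name and a 1.5-fold threshold included. In a choice made after seeing the data, dropping the filter left 14 of 15 hepatocyte loci at least 2-fold lower and gave 10 of 12 epididymis, 6 of 10 neutrophil and 5 of 10 epithelial loci. Without the filter, 8.81% of all named loci were at least 2-fold lower, and 20.0% of those between 0.1 and 1 FPKM. Leaving out single mice was not run, and no paired analysis was possible because the table holds 1 pooled value per group. The files give no read count per library or locus, and Aqp3, Aqp4 and Aqp8 carry the flag for too few reads.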
